A study of Ovis aries with 42 samples.

Results

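The comparison described here sets 7 hypothalamus libraries from ewes in the luteal phase against 7 hypothalamus libraries from ewes in the follicular phase. These 14 libraries were chosen by their labelled tissue and phase alone, out of 42 in the series, which also holds anestrous hypothalamus libraries and pars tuberalis libraries of all 3 phases. The animals were adult females of the Rasa Aragonesa breed, the tissue was snap-frozen, and total RNA was sequenced from the whole piece of tissue. The labels give no treatment, no age beyond adult and no method of staging the cycle, and they do not say whether a library is 1 ewe or a pool. Nor do they name the ewe behind a library, so p-values here cover the variation among these libraries, part of which may be technical.

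The hypothalamus is the part of the brain that releases gonadotropin-releasing hormone in pulses and so drives the pituitary and the ovary. In the luteal phase the corpus luteum secretes progesterone, which holds those pulses at a low rate. In the follicular phase progesterone has gone, the growing follicles secrete estradiol, and rising estradiol finally triggers the surge of gonadotropin-releasing hormone that leads to ovulation. Kisspeptin neurons, which carry the receptors for both steroids, relay much of this signal. Neither these genes nor any other could be looked up by name, because the count table gives Ensembl sheep gene identifiers only and the reference gene table matched 0 of its 27054 identifiers. Rows of the table are therefore called features and are given by identifier, and no role can be stated for them. Markers of neurons, glia or pituitary cells could not be checked for the same reason. In whole tissue, fewer cells of a type and less RNA per cell cannot be told apart.

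The question was which features differ between the luteal and the follicular hypothalamus. No feature passed. Counts were compared with edgeR's quasi-likelihood test, in a fit of all 21 hypothalamus libraries, which pools the spread of the 3 phases, after normalization by TMM (a scaling that takes most features as unchanged). Of 16350 features tested, 0 had a Benjamini-Hochberg adjusted p under 0.05 (0% called), and the lowest adjusted p was 0.9996. At an unadjusted p under 0.05 there were 186 features, which is 1.14% of those tested and fewer than the 818 that 5% makes. Of the 186, 115 were higher and 71 were lower in the luteal phase. That balance depended on the setting: 199 of 521 were higher with surrogate variables, 169 of 392 without luteal library 2, and 105 of 204 when the fit held a term for how much the 10 largest features took of a library. Their fitted log2 differences had a median size of 0.704 and ran from 0.242 to 3.33. DESeq2 and limma-voom with sample weights also called 0. At an unadjusted p under 0.05, DESeq2 had 311 of 22708 features (1.37%). Limma-voom had 1053 of 16350 (6.44%), which is more than the 818 that 5% makes. When only the 14 luteal and follicular libraries entered the edgeR fit, 0 of 15954 features were called (lowest adjusted p = 0.975) and 576 (3.61%) had an unadjusted p under 0.05. Of the 186 features, 156 were among these 576, all 156 with the same sign, and both fits use the same 14 libraries. The common variation of a feature between libraries of a phase was fitted at 43.3% with all 21 libraries and 38.7% with the 14. Without anestrous library 15, 462 of 16419 features had an unadjusted p under 0.05 (edgeR). A number below 5% thus depended in part on libraries outside the contrast, and it does not measure how alike the phases are.

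These libraries were precise enough to bound most differences. The 95% interval of the log2 fold change lay wholly within a 2-fold change in either direction for 11684 of 16350 features (71.5%). In the fit of 14 libraries it did so for 12201 features (76.5%). The bound depended on abundance, given here in CPM (counts scaled to a TMM-adjusted library of 1000000). The interval stayed within 2-fold for 90.2% of the 7436 features at 10 to 100 CPM and for 90.2% of the 1331 features over 100 CPM. It did so for 61.5% of the 5873 features at 1 to 10 CPM, and for 9.65% of the 1710 features under 1 CPM. The median half-width of the interval was 0.401 on the log2 scale at 10 to 100 CPM and 1.37 under 1 CPM. Under 1 CPM the interval of most features therefore reached a 2-fold change, while for a feature above 10 CPM a change of that size was mostly outside its interval. These intervals are not adjusted for the number of features, and they do not say whether such a change would have been called. The middle of all fitted log2 fold changes was -0.0106, with the 5th and 95th percentiles at -0.46 and 0.502. A fitted change of more than 2-fold in either direction was found for 276 features, against 523 of the same 16350 with limma-voom and 2621 of 22708 with DESeq2, which tested features of lower counts too.

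**Figure D1:**
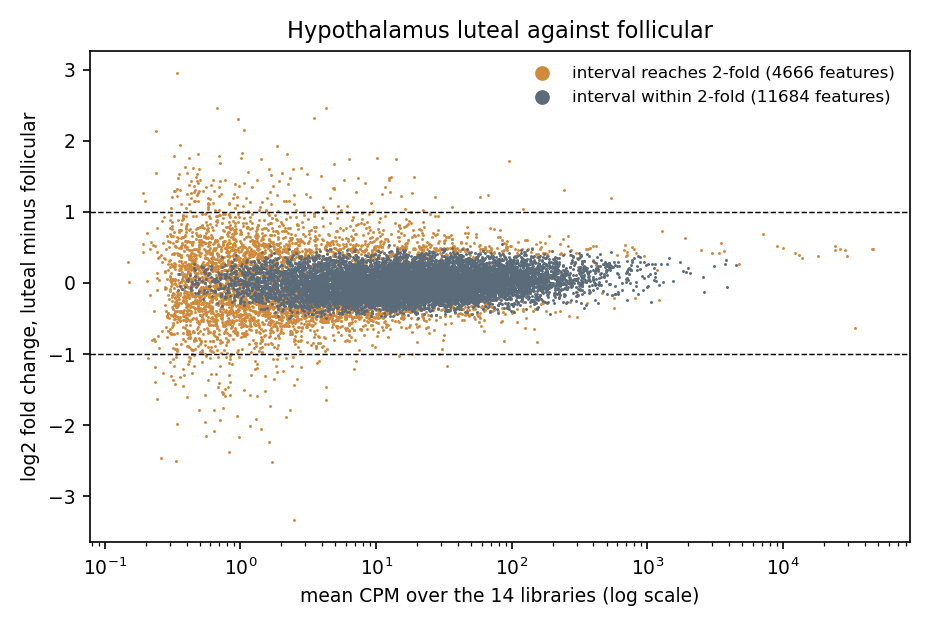
Each point is 1 of 16350 features, with its mean CPM over the 14 libraries on a log axis and its fitted log2 fold change, luteal minus follicular, on the other axis. Grey points (11684) have a 95% interval that lies within the dashed lines at 2-fold, orange points (4666) have an interval that reaches one of them, and the cloud widens toward low CPM.

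The 2 features with the lowest p among those higher in the luteal phase each had a few high luteal libraries. ENSOARG00000009381 had a lowest, median and highest value of 1.54, 2.36 and 6.78 CPM in the luteal libraries, against 0.662, 1.40 and 2.11 CPM in the follicular ones. Luteal libraries 5 and 3 (6.78 and 4.22 CPM) stood highest, and 2 other luteal libraries lay within the follicular range. Its log2 fold change was 1.16 (95% interval 0.435 to 1.88, edgeR adjusted p = 0.9996). ENSOARG00000009653 ran from 15.6 over a median of 28.1 to 76.8 CPM in the luteal libraries, and from 7.60 over 15.7 to 25.2 CPM in the follicular ones. Libraries 3 and 5 were again the highest luteal ones, at 76.8 and 63.9 CPM, and the ranges overlapped. The log2 fold change was 1.21 (95% interval 0.40 to 2.01, edgeR adjusted p = 0.9996).

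The 2 features with the lowest p among those lower in the luteal phase differed more evenly across libraries. ENSOARG00000015061 had a lowest, median and highest value of 1.49, 2.77 and 3.48 CPM in the luteal libraries, against 3.36, 4.56 and 5.70 CPM in the follicular ones. Luteal library 4, at 3.48 CPM, lay above follicular libraries 8 and 14, at 3.36 CPM each, and no other luteal library reached the follicular range. The log2 fold change was -0.757 (95% interval -1.21 to -0.305, edgeR adjusted p = 0.9996). ENSOARG00000019063 ran from 0.438 over 1.34 to 1.58 CPM in the luteal libraries and from 1.42 over 2.52 to 3.68 CPM in the follicular ones. Luteal libraries 1 and 2, at 1.58 and 1.44 CPM, lay above follicular library 10, at 1.42 CPM, and luteal library 7 rounds to the same 1.42 CPM. The log2 fold change was -1.07 (95% interval -1.76 to -0.381, edgeR adjusted p = 0.9996). These 4 features were taken for their low p in these libraries, so their separation supports nothing further. In the 7 anestrous hypothalamus libraries, which are outside the contrast, the means lay nearer the luteal than the follicular mean for each of the 4: 3.32 ± 1.21 CPM for ENSOARG00000009381, 34.7 ± 21 CPM for ENSOARG00000009653, 2.75 ± 0.673 CPM for ENSOARG00000015061 and 1.39 ± 0.719 CPM for ENSOARG00000019063 (SD, n = 7). That nearness was not tested.

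**Figure D2:**
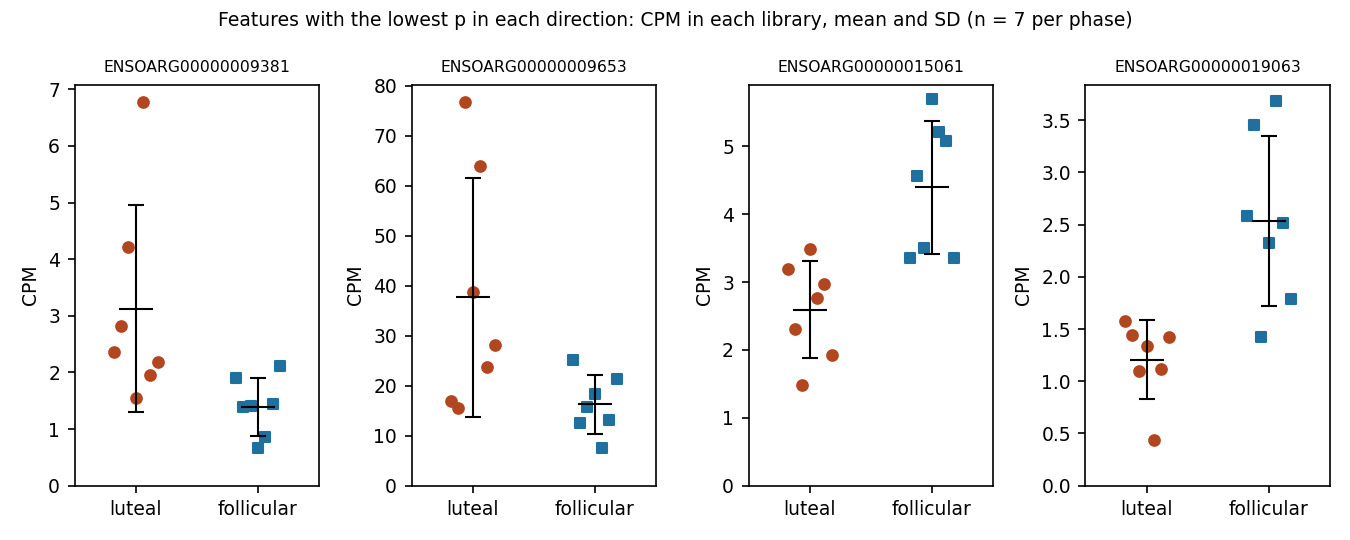
CPM of 4 features in each luteal (circles) and follicular (squares) hypothalamus library, with the mean and SD of the 7 libraries of a phase as black bars. Luteal libraries 3 and 5 are the highest for ENSOARG00000009381 and ENSOARG00000009653, and the ranges overlap in all 4 panels.

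The pars tuberalis libraries of the same 2 phases are separate libraries and were not used to choose these features. There the luteal mean of ENSOARG00000009381 was 4.74 ± 2.46 CPM and its follicular mean 4.13 ± 1.78 CPM (SD, n = 7 each), a log2 fold change of 0.20 (95% interval -0.438 to 0.839). ENSOARG00000009653 had means of 49.8 ± 11 and 54.3 ± 10.1 CPM, and its log2 fold change was -0.123 with an interval of -0.439 to 0.194. For ENSOARG00000015061 the means were 2.81 ± 0.704 and 2.62 ± 0.744 CPM, with a log2 fold change of 0.102 (interval -0.336 to 0.539). For ENSOARG00000019063 they were 1.39 ± 0.756 and 1.46 ± 0.493 CPM, with a log2 fold change of -0.0487 (interval -0.887 to 0.79). In the pars tuberalis each of these 4 intervals held 0. Whether the phase difference itself differed between the tissues was tested in a fit of all 42 libraries. That fit took the libraries as independent, because the labels tie none of them to a ewe. If both tissues came from the same ewes, that pairing was not used. EdgeR called 0 of 17296 features, with 552 (3.19%) at an unadjusted p under 0.05, and limma-voom called 0 with 880. DESeq2 called 3, which are named because they are so few: ENSOARG00000009473, ENSOARG00000001345 and ENSOARG00000016170. Each had counts in at most 4 libraries of any of the 4 groups, and their fitted log2 differences of -20.8, 21.2 and 23 have no meaning as a size. For the 4 features above, the adjusted p of the difference rounded to 1 with edgeR.

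Complete separation of the phases was rare. Of the 16350 features, 4 (0.0245%) had luteal and follicular CPM ranges that did not overlap, 3 higher and 1 lower in the luteal phase. They are named because there are so few and were chosen after their values were seen, so their separation supports nothing further. Whether 4 is more than random phase labels would give was not tested. ENSOARG00000001278 had a lowest, median and highest value of 43.8, 48.9 and 58 CPM in the luteal libraries and 34, 39.1 and 42.4 CPM in the follicular ones. Its log2 fold change was 0.323 (95% interval -0.00689 to 0.653, edgeR adjusted p = 0.9996), and 0.324 with an interval of 0.132 to 0.515 in the fit of 14 libraries. ENSOARG00000013810 ran from 11.9 over 13.5 to 17.2 CPM in the luteal libraries and from 8.80 over 10.9 to 11.9 CPM in the follicular ones, where luteal library 1 and follicular library 11 both round to 11.9 CPM. ENSOARG00000013155 ran from 116 over 129 to 207 CPM in the luteal libraries and from 104 over 107 to 116 CPM in the follicular ones, with luteal library 5 and follicular library 13 both at 116 CPM after rounding. Its follicular libraries were tight (SD 4.75 CPM) and its luteal ones were not (SD 32.5 CPM). ENSOARG00000000689 was low throughout, at 0.626 to 0.72 CPM in the luteal and 0.731 to 1.52 CPM in the follicular libraries. The log2 differences of all 4 were small, between -0.581 and 0.434, and no adjusted p was under 0.05 for any of them in either fit.

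**Figure D3:**
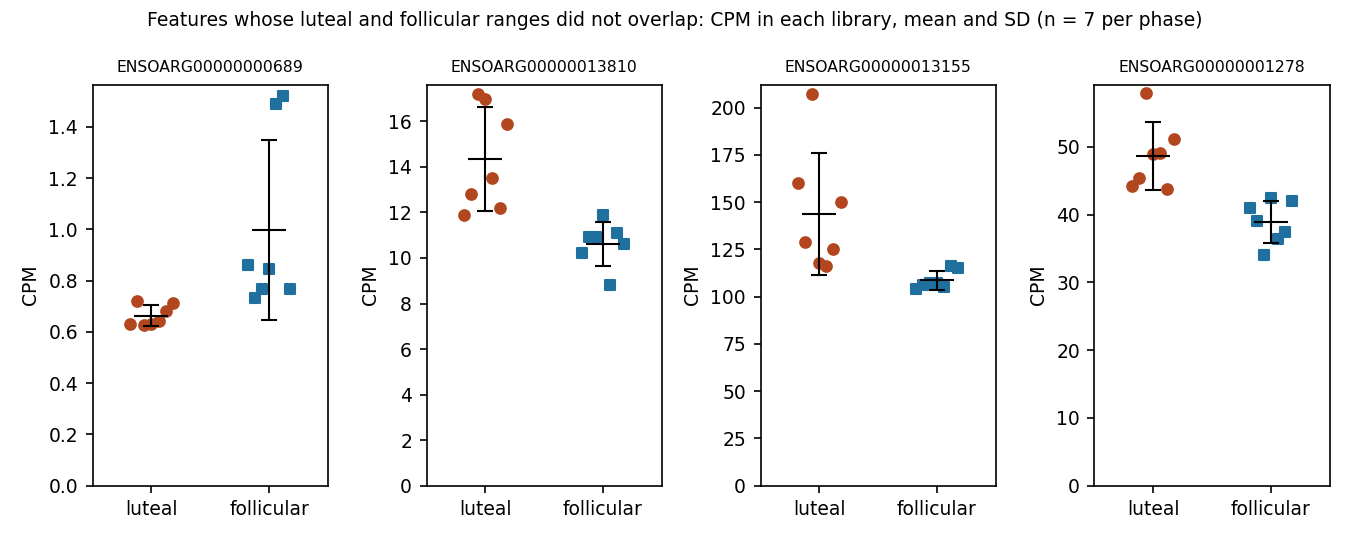
CPM of the 4 features whose luteal (circles) and follicular (squares) ranges did not overlap, with the mean and SD of the 7 libraries of a phase as black bars. The gap between the phases is narrow in each panel, and the spread of 1 phase is several times that of the other for ENSOARG00000000689 and ENSOARG00000013155.

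No feature was switched on in one phase and off in the other. None of the 27054 features had a count in all 7 luteal libraries and 0 counts in all 7 follicular ones, or the reverse. Presence and absence did vary between libraries. There were 84 features with 0 counts in at least 1 of the 14 libraries and 10 CPM or more in another, here on unadjusted library totals. In 72 of the 84, the number of libraries at 0 was equal in the phases or differed by 1, and the largest difference, of 4 libraries, was seen for 1 feature. ENSOARG00000025385 had the largest SD of log2 CPM among features with a mean of at least 10 CPM. It was at 0 counts in 3 luteal libraries (1, 4 and 7) and 2 follicular libraries (8 and 13). A count of 0 allows up to 3 counts, or at most 0.164 CPM in these 5 libraries, by counting error alone. In the other 4 luteal libraries it lay between 111 and 178 CPM, and in the other 5 follicular libraries between 95.7 and 156 CPM. No fold is given for it, since its libraries fell into an on and an off state in both phases.

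Total counts ran from 18511124 to 37726207, and averaged 26327905 in the luteal and 26188105 in the follicular phase. Differences in makeup between the phases were tested for 6 values per library by two-sided exact permutation of the phase labels (3432 arrangements), adjusted over the 6, and none passed. The difference in total counts, of 139800, had an exact permutation p of 0.963 (adjusted 0.963). The number of features with a count was 18370 ± 601 in the luteal and 18520 ± 336.7 in the follicular libraries (SD, n = 7 each; exact permutation p = 0.591, adjusted 0.908). The 10 largest features of a library took 30.2 ± 9.08% of its counts in the luteal and 28.1 ± 5.02% in the follicular phase (SD, n = 7 each; exact permutation p = 0.605, adjusted 0.908). On the first 3 principal components of log2 CPM, which held 26.3%, 16.7% and 11.9% of the variance of the 14 libraries, the luteal and follicular means differed with an exact permutation p of 0.516, 0.823 and 0.42 (adjusted 0.908, 0.963 and 0.908).

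**Figure D4:**
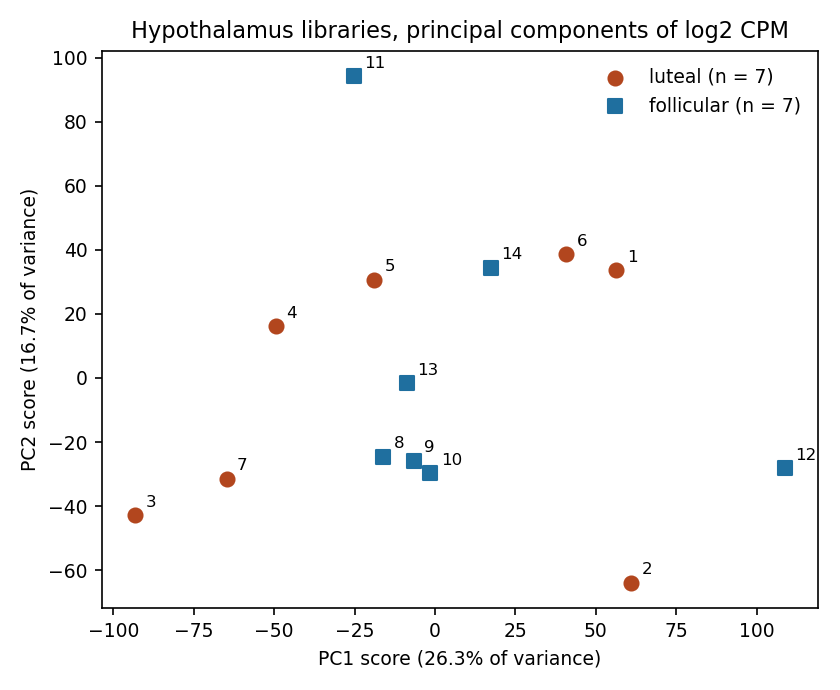
Scores of the 14 hypothalamus libraries on the first and second principal components of log2 CPM over 16350 features, with each library's number. Luteal (circles) and follicular (squares) libraries are mixed, follicular library 12 and luteal library 3 lie at the ends of PC1, and follicular library 11 and luteal library 2 at the ends of PC2. The sign of a component is arbitrary.

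Pairs of libraries were as alike across the phases as within them. Over the 16350 features, the median pairwise correlation was 0.912 among luteal libraries, 0.926 among follicular libraries and 0.919 between a luteal and a follicular library (features are not independent replicates). By its median correlation, 6 of the 14 libraries were closer to their own phase than to the other. The most similar library was of the same phase for 8 of 14. Each of the 14 had a hypothalamus library correlated with it at 0.923 or more, while its correlation with any pars tuberalis library was at most 0.882, which matches the labelled tissue. The spread between libraries was somewhat wider in the luteal phase. The median SD of log2 CPM was 0.434 over the luteal and 0.385 over the follicular libraries, and 59.2% of features had the larger SD in the luteal phase. This difference in spread was not tested.

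The most abundant features showed that wider luteal spread. ENSOARG00000000016 and ENSOARG00000000035 had the highest mean share of counts over the 14 libraries. ENSOARG00000000016 ran from 25200 over a median of 44800 to 105000 CPM in the luteal libraries and from 33000 over 37100 to 45300 CPM in the follicular ones. ENSOARG00000000035 ran from 23700 over 41300 to 109000 CPM and from 33400 over 36900 to 45800 CPM. Both were highest in luteal libraries 3 and 7, and both luteal ranges spanned the whole follicular range. Their log2 fold changes were 0.478 (95% interval -0.22 to 1.18) and 0.472 (95% interval -0.251 to 1.20), with an edgeR adjusted p of 0.9996 each. Without luteal libraries 3 and 7 the values were -0.0161 and -0.0791. They were among 55 features with a mean of 1000 CPM or more, of which 48 had a fitted value above 0 (median 0.267), where 48.1% of all features did (median -0.0106). Without libraries 3 and 7 it was 34 of the 55 (median 0.0534). None of the 55 was called. In libraries 3 and 7 the 10 largest features took 43.0% and 38.7% of all counts. The wide spread was not particular to the luteal hypothalamus. In the pars tuberalis, ENSOARG00000000016 had 46400 ± 24700 luteal and 34000 ± 6360 follicular CPM (SD, log2 fold change 0.446). ENSOARG00000000035 had 46800 ± 25900 and 34000 ± 5660 CPM there (log2 fold change 0.46). In the anestrous hypothalamus the 2 features had 63200 ± 25300 and 61000 ± 24700 CPM.

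ENSOARG00000009137, chosen after its values were seen, varied widely in both phases. It took between 0.00687% (library 2) and 10.6% (library 1) of the counts of a luteal library, with a median of 0.785%. In the follicular libraries it took between 0.0867% (library 8) and 18.6% (library 11), with a median of 1.74%. It was the largest feature of 4 of the 14 libraries, and both phases covered most of the range. Its log2 fold change, luteal minus follicular, was -0.637 with a 95% interval from -2.99 to 1.71 (edgeR adjusted p = 0.9996), and without follicular library 11 it was 0.766. In the pars tuberalis this feature took from 0.01% to 6.11% of the counts of a library, with a median of 0.946%.

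The hypothalamus libraries also differed in how much they held of features typical of the pars tuberalis, which adjoins the base of the hypothalamus. A list of 14 features was taken from the anestrous libraries alone, so that none of the luteal or follicular libraries chose it. Each exceeded the hypothalamus by over 32-fold in the pars tuberalis and reached 10 CPM there. Their summed level had a lowest, median and highest value of 4.37, 79.7 and 379 CPM in the luteal and 9.96, 54.2 and 723 CPM in the follicular hypothalamus. In pars tuberalis libraries the sum lay between 2990 and 5620 CPM. Follicular library 11 stood highest, at 18.6% of the pars tuberalis median, with luteal library 1 next (9.77%) and luteal library 2 lowest (0.113%). All 14 of these features had 10 or more counts in libraries 6 and 11, while 7 of them were at 0 counts in library 2. The sum did not differ detectably between the phases (log2 difference 0.433, two-sided exact permutation p = 0.716, adjusted 0.879 over 3 such values).

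ENSOARG00000009137 and the second principal component moved with this sum. The share of ENSOARG00000009137, which is not on the list of 14, rose with it on the log scale over the 14 libraries (Pearson r = 0.915, permutation p = 1.0e-05; Spearman rho = 0.965, permutation p = 1.0e-05). These are the smallest p that 100000 permutations can give, and 3 relations were computed (adjusted p = 1.5e-05 and 3.0e-05). Without libraries 2 and 11, r was 0.873, and it was 0.938 within the luteal and 0.965 within the follicular libraries. The second principal component followed the same sum (Pearson r = 0.90, permutation p = 1.0e-05, adjusted 1.5e-05; Spearman rho = 0.855, permutation p = 1.4e-04, adjusted 1.4e-04). Without libraries 2 and 11, that r was 0.849. The first principal component followed the summed level of 71 features that were over 32-fold higher in the anestrous hypothalamus than in the anestrous pars tuberalis (Pearson r = 0.791, permutation p = 0.00086, adjusted 0.00086; Spearman rho = 0.912, permutation p = 2.0e-05, adjusted 3.0e-05). Without libraries 11 and 12 that r was 0.833. The summed features are themselves among those the components were computed from. All 3 relations were chosen after the data were seen, and their p-values do not cover that choice. Other pairings of the sums and components were not tested. The 71-feature sum ran from 7830 to 31400 CPM in the luteal and from 4470 to 35900 CPM in the follicular libraries, and the phases did not differ detectably in it (two-sided exact permutation p = 0.879, adjusted 0.879).

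**Figure D5:**
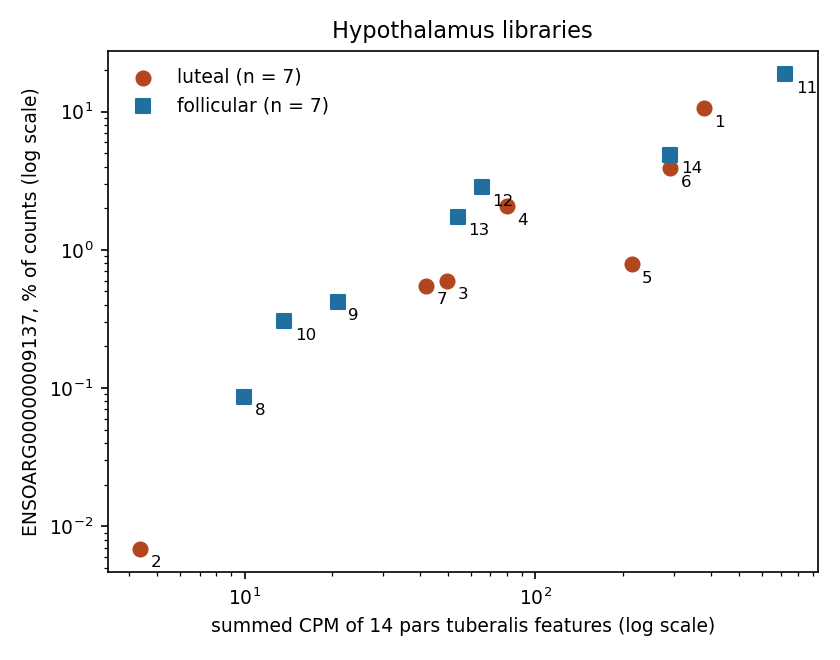
Share of counts of ENSOARG00000009137 in percent against the summed CPM of 14 features far higher in the pars tuberalis, both on log axes, for the 7 luteal (circles) and 7 follicular (squares) hypothalamus libraries, with library numbers. The share and the sum are lowest in library 2 and highest in library 11, and both phases spread along the same line.

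With both sums as covariates, edgeR still called 0 features, with 358 of 16350 at an unadjusted p under 0.05 in the fit of 21 libraries. In the fit of 14 libraries with the same covariates, 1636 of 15954 features (10.3%) had an unadjusted p under 0.05, and the lowest adjusted p was 0.449. These covariates were chosen after the data were seen.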

How the data were processed

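Per the labels' protocols, total RNA from about 0.5 g of frozen tissue with an integrity number above 7 was sequenced on an Illumina HiSeq instrument. The authors deposited raw counts, as whole numbers per Ensembl sheep gene identifier. Per the submitters' processing notes, which give no role or order, the tools were HISAT2 2.1.0, StringTie 1.3.5, SAMtools 1.7, Trimmomatic 0.38, FastQC 0.11.5, R 3.5.1 and DESeq2. Genome build, annotation release, strandedness and treatment of shared reads were not given in the sources used here. Counts of paralogs, antisense and overlapping genes are uncertain for that reason.

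All 42 columns matched a sample by library number, tissue and phase. No 2 of the 14 columns were identical. The lowest chi-square of any pair, on raw counts, was 31.1 for each degree of freedom (libraries 3 and 7). By correlation, the library most like each of these was library 4. Tests used edgeR 4.0.16 in R 4.3.3 (TMM, filterByExpr with a minimum count of 10, robust dispersion and fit, two-sided, Benjamini-Hochberg). DESeq2 1.42.0, limma 3.58.1 and sva 3.50.0 gave alternatives. Standard errors are the log2 fold change divided by the square root of F. Principal components used log2 CPM with a pseudocount of 0.5.

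The libraries and lists were chosen with earlier results of these data known. Gene symbols could not be matched, so the 14 marker lists and 20 key genes of the plan were not tested. The features named are the 2 with the lowest p in each direction, the 2 with the highest mean share of counts, the 1 with the largest SD of log2 CPM at a mean of 10 CPM or more, and those said to be chosen after their values were seen.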

Additional observations from a re-analysis of the deposited data

Results flagged for a closer look

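Among 40 sets of 7 values (8 library measures and 12 features, each in 2 phases), 7 had a library far from the others by Dixon's ratio. Chance gives about 1 such set in 20 if the values are normally distributed, and many of these measures are not independent. CPM values and sums entered the ratio without a log, so some flags may depend on that scale. As log2 of its percent share, ENSOARG00000009137 was at 4.22 in follicular library 11, 2.29 in the next and -3.53 in the lowest. On that scale luteal library 2 lay lowest, at -7.19 against -0.863 in the next luteal library. Flags on the log scale were not computed. Follicular library 11 held 38.5% of its counts in its 10 largest features, where the next follicular library held 29.5%. The same library had 196000 CPM of ENSOARG00000009137, against 44200 CPM in the next, and a summed level of 723 CPM for the 14 pars tuberalis features, against 291 CPM in the next. Follicular library 12 stood apart on the first principal component, with a score of 109 against 17.4 in the next. It also had the highest summed level of the 71 hypothalamus features, 35900 CPM against 16800 CPM. Luteal library 1 had 111000 CPM of ENSOARG00000009137, against 32500 CPM in the next luteal library. Luteal library 5 had 0.438 CPM of ENSOARG00000019063, where the next lowest luteal library had 1.10 CPM.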

How the results depend on the processing

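In the luteal against follicular hypothalamus, 0 features were called under each of the 31 settings set beside the main fit. Those 31 include the fit of only the 14 libraries, and each of the 16 variations of that fit also called 0. No paired analysis was possible because the labels do not name the ewe behind a library. The number at an unadjusted p under 0.05, 186 as reported, was 311 with DESeq2, 744 with no filter on low counts, 1053 with limma-voom, 576 with only the 14 libraries, 521 with 5 surrogate variables and 358 with the tissue sums as covariates. As a share of the features tested, it was 1.14% as reported, 1.37% with DESeq2, 3.28% with no filter and 6.44% with limma-voom. Leaving out each of the 21 libraries in turn gave 119 (library 7) to 462 (anestrous library 15). The 6 other anestrous libraries, added after the data were seen, gave 175 to 212. It also moved by over 1.5 times without library 1 (318), 2 (392), 3 (121) or 11 (320). In the 14-library fit, 576 became 1636 with the tissue sums as covariates and 290 without libraries 3 and 7. Leaving out 1 library there gave 328 (library 7) to 952 (library 11), and it moved as far without library 1 (890), 2 (926), 3 (335) or 13 (374). The number of intervals within 2-fold moved by less than 1.5 times under each setting. Its share of the features tested moved more, from 71.5% as reported to 53.1% with DESeq2 and 51.6% with no filter, both of 22708 features. With surrogate variables it was 82.5%. For the 11 features with a fold change, 334 of 340 values kept their direction and none passed. Some of these settings left out only an anestrous library, which is outside the contrast. The features were also chosen by their values in these same libraries, so a kept direction was likely in advance. With surrogate variables ENSOARG00000000016 and ENSOARG00000000035 turned to -0.0703 and -0.122, and without libraries 3 and 7 to -0.0161 and -0.0791. ENSOARG00000009137 turned to 0.613 with limma-voom, and leaving out 1 library gave -1.72 to 0.766. The phase difference of library values crossed 0 when 1 library was left out: -1759917 to 1442597 for total counts, -299 to 13 for features with a count, -0.066 to 3.86 percentage points for the 10 largest features and -16.9 to 9.01 for PC2. For the difference between tissues, DESeq2 called 3 features. The cause of these changes was not tested. Under 1 CPM intervals were widest, and the SD of log2 CPM was also highest there (median 1.31 luteal, 0.987 follicular).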
